A study of Mus musculus with 24 samples.

Results

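Accessible chromatin of healed mouse skin was compared between wounds of different depth, 80 days after injury. The full-thickness group held 2 samples of Sox9-CreER/R26-YFP mice, whose sorted cells are labelled as wound-responsive progeny of epidermal stem cells. The partial-thickness group held 3 samples of Krt19-CreER/R26-YFP mice, whose sorted cells are labelled as wound-responsive progeny of hair follicle stem cells. All animals came from a cross of CD1 with C57BL/6J, and the sources used here give no ages. CreER is a drug-activated recombinase, driven here by the Sox9 or the Krt19 locus, and R26-YFP is the reporter that it switches on. Wound depth, driver line and labelled origin differ together and cannot be told apart. Sox9 and Krt19 are both known as genes of the hair follicle, and the origin of each group is given here as the labels state it. Cells came from trypsin-treated skin, were isolated by FACS and were exposed to a transposase that cuts open DNA (ATAC-seq).

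Each group was deposited as 1 peak list. No error between animals and no test between the wounds is therefore possible, and each region is only present in a list or absent from it. The peaks of both day 80 lists were merged on the mm10 build into 39194 regions, against 63188 regions when all 8 lists of the series are merged. A region counted as shared when peaks of both lists fell in it with an overlap of at least 1 bp. The other 6 lists, which the classes did not use, come from unwounded hair follicle stem cells (day 0), unwounded epidermal stem cells (day 0 and day 80), partial-thickness wounds (day 3 and day 7) and full-thickness wounds (day 7). The day 7 full-thickness samples come from Sox9-CreER/R26-YFP mice, and all unwounded and early partial-thickness samples from Krt19-CreER/R26-YFP mice. A region was counted at the closest protein-coding gene up to 50 kb away, a statement of position only. This gave 34005 assigned regions at 13261 genes.

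The epidermis is renewed by basal keratinocytes, which depend on the transcription factor p63 and hold on to a basement membrane. After injury, cells of the epidermis and of the hair follicle both move into the wound, where growth factors of the EGF, TGF-beta, Wnt and hedgehog families and the stress-responsive AP-1 factors (Fos and Jun proteins) direct migration, division and later differentiation. Some accessible sites opened by injury can stay open long after the skin has closed, a form of epigenetic memory described in skin stem cells.

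4 promoters at which the lists differed are printed as examples. Each is the stretch of 250 bases before an annotated start, from RefSeq on GRCm38.p6, the assembly of mm10, printed 5′ to 3′ on the gene's own strand. They were chosen after values were seen, as promoters of genes with a known role. Most regions held by 1 list alone lay elsewhere. Within 1 kb of either boundary of a gene lay 13.1% of such regions of the full-thickness list and 11.2% of the partial-thickness list. Capitals mark every match, on either strand, to any of 5 short motifs. The GC box was searched as GGGCGG and the CCAAT box by the letters of its name. The TATA box was searched as TATAAA. The motif of AP-1 factors was searched as TGANTCA. That of GATA factors was searched as GATAAG. Those of Ltbp1, which encodes a protein that stores latent TGF-beta in the matrix (chr17:75005279-75005528, plus strand), and of Mki67, the gene of the proliferation antigen Ki-67 (chr7:135716380-135716629, minus strand), overlapped a peak of the full-thickness list and none of the partial-thickness list. Those of Fos, an AP-1 subunit (chr12:85473640-85473889, plus strand), and of Tgm3, an epidermal transglutaminase (chr2:130012090-130012339, plus strand, a start inside the span of the gene), overlapped a peak of the partial-thickness list and none of the full-thickness list.
Ltbp1: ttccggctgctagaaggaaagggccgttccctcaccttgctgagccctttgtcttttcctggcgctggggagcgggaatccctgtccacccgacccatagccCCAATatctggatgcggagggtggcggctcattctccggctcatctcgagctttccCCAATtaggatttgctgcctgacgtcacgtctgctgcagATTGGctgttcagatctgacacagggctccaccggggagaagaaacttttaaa
Mki67: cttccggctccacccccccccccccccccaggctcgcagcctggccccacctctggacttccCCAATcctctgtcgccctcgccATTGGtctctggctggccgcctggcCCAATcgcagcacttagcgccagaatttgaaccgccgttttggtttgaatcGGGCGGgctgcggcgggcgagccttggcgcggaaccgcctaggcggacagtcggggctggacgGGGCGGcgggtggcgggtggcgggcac
Fos: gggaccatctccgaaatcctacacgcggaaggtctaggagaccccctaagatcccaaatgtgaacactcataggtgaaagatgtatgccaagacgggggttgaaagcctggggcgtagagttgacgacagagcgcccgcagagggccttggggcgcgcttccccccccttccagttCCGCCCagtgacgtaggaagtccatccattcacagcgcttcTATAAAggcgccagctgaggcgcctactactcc
Tgm3: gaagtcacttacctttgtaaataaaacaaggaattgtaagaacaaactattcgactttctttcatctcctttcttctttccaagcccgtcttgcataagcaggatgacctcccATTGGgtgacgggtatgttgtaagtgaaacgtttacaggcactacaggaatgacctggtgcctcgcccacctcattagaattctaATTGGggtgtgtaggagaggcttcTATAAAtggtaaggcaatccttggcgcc

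3 mature miRNAs encoded inside such regions are shown with the seed, bases 2 to 8, in capitals, because the seed sets which messages a miRNA pairs with. The hairpin of miR-344b (chr7:61790519-61790581, minus strand) lay in a full-thickness-alone region. The hairpins of miR-27b (chr13:63300712-63300784, plus strand) and miR-24 (chr13:63301208-63301275, plus strand) lay together in 1 partial-thickness-alone region. The 3 seeds differ from one another.
mmu-miR-344b-3p: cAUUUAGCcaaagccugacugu
mmu-miR-27b-3p: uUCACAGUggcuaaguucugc
mmu-miR-24-3p: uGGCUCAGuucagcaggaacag

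Most accessible regions of the healed wounds were common to both. Of the 39194 regions, 6220 (15.9%, exact 95% interval 15.5 to 16.2) were held by the full-thickness list alone, 6727 (17.2%, 16.8 to 17.5) by the partial-thickness list alone and 26247 (67.0%, 66.5 to 67.4) by both. Put by list, 80.8% of the full-thickness regions and 79.6% of the partial-thickness regions were shared. These intervals, like all those of shares below, are exact Clopper-Pearson intervals. They and the half-widths of differences cover counting error only. The deposited lists held 33573 peaks (full-thickness) and 32976 peaks (partial-thickness), but the peaks differed in size, with a median width of 460 bp in the full-thickness list and 961 bp in the partial-thickness list. The weakest peak kept also differed, at a −log10 p of 7.98 in the full-thickness list and 21.0 in the partial-thickness list. Read depth is unknown for every sample.

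Regions held by 1 list were mostly weak and narrow. Peaks were ranked by the authors' −log10 p within their own list. Full-thickness-alone regions had a median rank at percentile 19.6 of their list, and partial-thickness-alone regions at percentile 20 of theirs, whereas shared regions had medians of 59.8 and 59.4 in the same lists. The median width was 325 bp for full-thickness-alone regions, 692 bp for partial-thickness-alone regions and 1037 bp for shared regions. In the weakest 10% of the full-thickness list 56.5% (54.7 to 58.2) of regions were absent from the other list, and in the weakest 10% of the partial-thickness list 54.2% (52.4 to 55.9). In the strongest 10% 7 of 3358 full-thickness regions (0.208%) and 1 of 3298 partial-thickness regions (0.0303%) were absent from the other list. Few regions sat just outside the overlap rule, since 46 regions of each alone class lay within 500 bp of a peak of the other list. In the upper 50% of the list, 624 full-thickness-alone regions and 593 partial-thickness-alone regions remained, and these are called strong below.

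**Figure D1:**
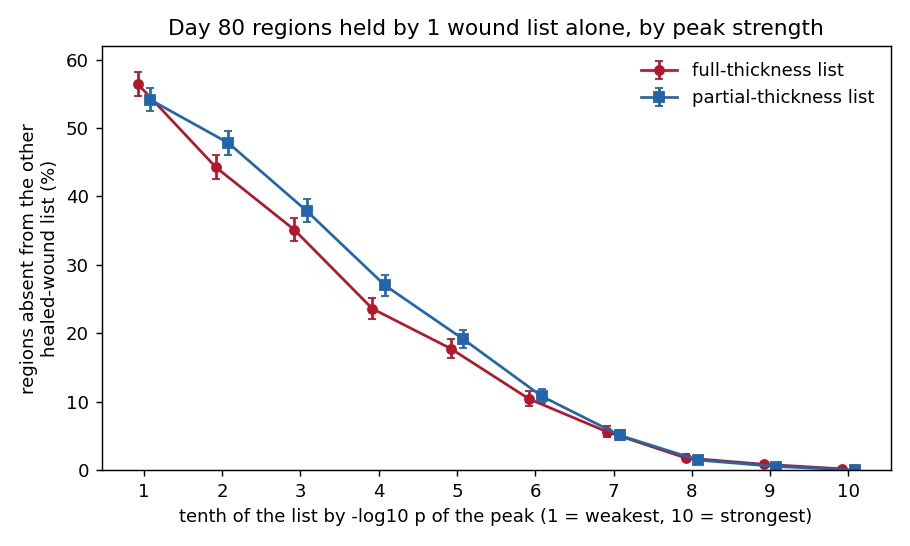
Share of the regions of each day 80 wound list that the other list lacked (y axis, %), in steps of 10% of the list in order of the authors' −log10 p (x axis, weakest to strongest), with exact 95% intervals. Both lines run from over 50% in the weakest 10%, 56.5% in the full-thickness list and 54.2% in the partial-thickness list, to under 1% in the strongest.

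The regions that set the healed wounds apart had different histories. Full-thickness-alone regions were more often present in the early wound lists, and partial-thickness-alone regions more often in the unwounded epidermal list of the same day. The day 7 full-thickness list held 49.8% (48.6 to 51.1) of full-thickness-alone regions and 38.8% (37.7 to 40.0) of partial-thickness-alone regions. The day 3 partial-thickness list held 47.6% and 35.6% of them in the same order, and the day 7 partial-thickness list 48.5% and 37.3%. The differences were +11 points (day 7 full), +11.9 points (day 3 partial) and +11.1 points (day 7 partial), each with a half-width of 1.7. The partial-thickness wound's own early lists thus held more of the regions found in the full-thickness list alone than of those in the partial-thickness list alone. In the day 80 epidermal list the order was the opposite, with 34.5% of full-thickness-alone regions and 41.8% of partial-thickness-alone regions, a difference of −7.30 ± 1.68 points. That list shares its driver line with the partial-thickness wounds, and the part of the line was not tested. The day 0 epidermal list held 37.1% and 35.5%, and the hair follicle list 23.9% and 25.1%, differences of +1.62 ± 1.67 and −1.23 ± 1.49 points. Both of these depended on the settings: the day 0 epidermal difference ran from −29.2, when peaks had to span 50% of a region, to +7.66, when equal windows around the summits replaced the peaks, and the hair follicle difference from −24.3 to +4.99 under the same settings. Shared regions were in each of these lists at 65.5% or more.

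In strong regions the contrast was wider. The day 7 full-thickness list held 71.6% (67.9 to 75.1) of strong full-thickness-alone regions and 53.0% (48.8 to 57.0) of strong partial-thickness-alone regions, and the day 80 epidermal list held 45.8% (41.9 to 49.8) and 68.5% (64.6 to 72.2). When every peak was replaced by an equal window around its summit, the early differences stayed at +15.4 (day 7 full), +15.9 (day 3 partial) and +15.2 points (day 7 partial), but the day 80 epidermal difference became +0.595 ± 1.59. With the stricter demand that the peaks of a list span 50% of a region, the early differences were −14.5, −12.6 and −15.8 points in the same order. Under that demand 15421 regions were shared, against 26247, and 17548 were partial-thickness alone, against 6727. Full-thickness-alone regions numbered 6225, against 6220. The cause of the changed sign was not tested.

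**Figure D2:**
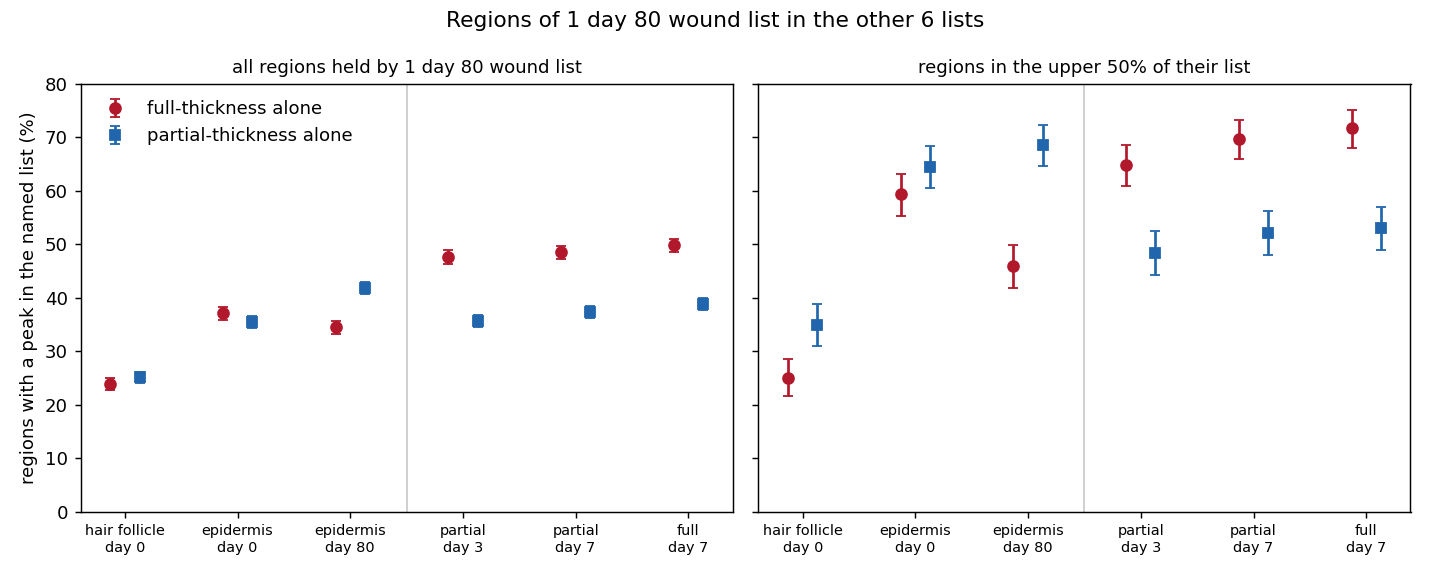
Share of full-thickness-alone (circles) and partial-thickness-alone (squares) regions that have a peak in each of the other 6 lists (y axis, %), with exact 95% intervals, for all such regions (left) and for those in the upper 50% of their own list (right). Circles stand above squares in the 3 early wound lists, at 49.8% against 38.8% in the day 7 full-thickness list, and below them in the day 80 epidermal list, at 34.5% against 41.8%.

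Regions found in an early wound list and in no unwounded list made up 25% (23.9 to 26.1; 1554 regions) of full-thickness-alone regions, 17.4% (16.5 to 18.3; 1168 regions) of partial-thickness-alone regions and 3.03% of shared regions. With both lists kept above an equal limit of strength, at 20 in −log10 p scaled to its sum over the list, the shares were 10.3% of full-thickness-alone regions and 5.97% of partial-thickness-alone regions. Among strong regions they were 21.8% (18.6 to 25.2) of the full-thickness-alone class and 8.09% (6.03 to 10.6) of the partial-thickness-alone class. Of the 1554 full-thickness-alone regions of this kind, 1027 (66.1%) were in the day 7 full-thickness list together with an early partial-thickness list, 250 in the day 7 full-thickness list alone of the early lists and 277 in early partial-thickness lists alone. Regions in no other list made up 17.9% (1116) of full-thickness-alone regions and 21.6% (1452) of partial-thickness-alone regions. Unwounded epidermis held 50.1% of full-thickness-alone regions, 53.1% of partial-thickness-alone regions and 94.6% of shared regions. The day 0 epidermal list carries peak names tagged as a day 7 control, and without that list the difference in early wound regions absent from unwounded skin was 11.1 points.

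Genes of the TGF-beta pathway had more regions in the full-thickness list. TGF-beta is secreted in a latent form, is freed from the matrix, binds receptors at the cell surface and signals through SMAD proteins. Over all assigned regions 15% were full-thickness alone and 17.2% partial-thickness alone. The lists below mostly differed in weak regions: among strong regions the net number of any of the 27 lists lay between −3 and 4. Of 88 regions at 13 TGF-beta genes, 23 were full-thickness alone (26.1%, 17.3 to 36.6) and 8 partial-thickness alone (9.09%, 4.01 to 17.1). By gene, 5 had more full-thickness-alone regions, 1 had more partial-thickness-alone regions and 7 were even, so the median net number per gene was 0. Without genes over 200 kb the list's net number was 7 more regions on the full-thickness side, against 15 with them. Ltbp1 (gene ID 268977, chr17:75005480-75392512) accounted for 8 of the 23 and for none of the 8. All 11 of its regions were in the full-thickness list and 3 in the partial-thickness list, beside 11, 10 and 10 in the day 7 partial, day 3 partial and day 7 full-thickness lists. The hair follicle list held 7 of the 11, the day 0 epidermal list 3 and the day 80 epidermal list 1. Of the 8 full-thickness-alone regions, 8 were in an early wound list, 6 in the hair follicle list and 1 in unwounded epidermis. They ranked from percentile 3.69 to 69.8, with 3 above percentile 50. One of them covered the promoter printed above.

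Of the TGF-beta ligand genes, Tgfb2 had 2 full-thickness-alone regions, 1 partial-thickness-alone region and 7 shared ones, and Tgfb1 and Tgfb3 had shared regions, 2 and 1. Of the receptor genes, Tgfbr2 had 2 full-thickness-alone and 0 partial-thickness-alone regions beside 9 shared ones, Tgfbr1 had 2 shared regions, and Tgfbr3, the co-receptor betaglycan, had 3, 3 and 9. Smad7, an inhibitor that the pathway induces, had 3 full-thickness-alone regions, 0 partial-thickness-alone regions and 3 shared ones. The effector genes Smad2 and Smad3 were near even, with 1 against 1 and 1 against 2. Tgfbi, a matrix protein induced by TGF-beta, had 3 and 1, but a net number of −1 with a gene window of 10 kb. BMP genes, which belong to the same superfamily, had 4 of 68 regions full-thickness alone (5.88%) and 8 partial-thickness alone (11.8%), both shares below those over all assigned regions. Among them Bmp7, a ligand gene, had 0 and 2.

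Hedgehog genes had the highest share of full-thickness-alone regions of the 27 lists. Hedgehog ligands relieve the block that the receptor Ptch1 puts on Smo, and the GLI factors then act on target genes in the follicle and the basal epidermis. Of 35 regions at 7 genes, 14 were full-thickness alone (40.0%, 23.9 to 57.9) and 2 partial-thickness alone (5.71%, 0.700 to 19.2). All but 1 of the 14 lay at a pair of genes. Gli2 (gene ID 14633, chr1:118834061-119054405) had 7 full-thickness-alone regions, 1 partial-thickness-alone region and 5 shared ones, and Gli3 (gene ID 14634, chr13:15463723-15730026) had 6, 0 and 6. At Gli2, 7 of the 7 full-thickness-alone regions were in an early wound list, 4 in unwounded epidermis and 3 in the hair follicle list. At Gli3, 2 of the 6 were in an early wound list, 3 in unwounded epidermis, 1 in the hair follicle list and 1 in no other list. Both genes span over 200 kb, and without genes of such span the net number of the list was 0, against 12 more full-thickness-alone regions with them. Of the other genes of the list, Hhip, a ligand-binding inhibitor, had 1 full-thickness-alone region and no other, and Ptch1 had 0 full-thickness-alone regions, 1 partial-thickness-alone region and 2 shared ones. Smo, the inhibitor gene Sufu and Gli1 had 2 shared regions each.

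Wnt genes had 20 full-thickness-alone regions of 82 (24.4%, 15.6 to 35.1) and 9 partial-thickness-alone regions (11%, 5.14 to 19.8). Here 9 genes had more full-thickness-alone regions and 2 had more partial-thickness-alone regions. Lef1, the transcription factor through which beta-catenin acts in the hair germ, had 3 full-thickness-alone regions, 0 partial-thickness-alone regions and 1 shared one. The R-spondin receptor genes Lgr4 and Lgr6 had 3 and 1 each. The ligand gene Wnt3 had 2 and 0, while the ligand gene Wnt7b had 2 and 4. Of Lef1's 3 full-thickness-alone regions, 2 were in the hair follicle list, 1 in an early wound list, 1 in unwounded epidermis and 1 in no other list. Of the 20 full-thickness-alone regions of the list, 14 were also in unwounded epidermis.

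EGF receptor genes differed from one to the next. The receptor gene Egfr had 4 full-thickness-alone regions and 1 partial-thickness-alone region, and the ligand gene Nrg1 8 and 2. Errfi1 (gene ID 74155, chr4:150853796-150868889), a feedback inhibitor of the receptor, had 0 and 5. Of Errfi1's 5 partial-thickness-alone regions, 4 were in an early wound list and 2 in unwounded epidermis, and their ranks ran from percentile 3.45 to 42.6. Lrig3, whose family holds inhibitors of the receptor, had 3 and 1, and the receptor genes Erbb2 and Erbb4 had 0 and 1, and 1 and 1. At Nrg1, 4 of the 8 full-thickness-alone regions were in no other list. The whole list had 17 of 62 regions full-thickness alone (27.4%) and 11 partial-thickness alone (17.7%), and 6 of the 17 were in no other list. Its net number of 6 rested on Nrg1, which spans 1084 kb, and was 0 without genes over 200 kb.

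The AP-1 and stress genes had 17 full-thickness-alone regions of 71 (23.9%, 14.6 to 35.5) and 9 partial-thickness-alone regions (12.7%, 5.96 to 22.7). The intervals of both shares include those over all assigned regions. Myc, a growth regulator, had 4 and 0, of which 2 were in all 6 other lists and so missing from the partial-thickness list alone among the 8. Elk3, an ETS factor, had 3 and 0. Jun had 3 and 1 and Fos 3 and 1. At Fos the lists crossed. The promoter region of 1342 bp (chr12:85473526-85474867) was in the partial-thickness list, at percentile 63.6, and in all 6 other lists, but not in the full-thickness list. A region of 1436 bp over the end of the same gene (chr12:85476197-85477632) was in the full-thickness list, at percentile 65.0, and in the day 0 epidermal list, but in no other list. Fosl1, Junb, Jund and Egr1 had 1 shared region each and no other. Proliferation genes had 8 full-thickness-alone regions of 42 (19.0%, 8.60 to 34.1) and 2 partial-thickness-alone regions (4.76%, 0.582 to 16.2). The first interval includes the 15% over all assigned regions, and the second lies below the 17.2%. Mki67 and the kinase gene Cdk6 had 2 and 0 each. With a gene window of 10 kb the net number of the AP-1 and stress list was 4, against 8 at 50 kb. The Mki67 promoter region ranked at percentile 36.4 and was in all 6 other lists.

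Axon guidance genes, whose products steer cell migration and adhesion in many epithelia, had the most regions of any list. Of 143, 42 were full-thickness alone (29.4%, 22.1 to 37.6) and 22 partial-thickness alone (15.4%, 9.90 to 22.4). The Slit receptor gene Robo1 had 9 and 2, its paralog Robo2 7 and 1, and the semaphorin receptor gene Plxna2 5 and 1. Efna5, an ephrin ligand gene, and Sema5a, a semaphorin gene, went the other way, with 2 and 5 each. Early wound lists held 27 of the 42 full-thickness-alone regions (64.3%) and 6 of the 22 partial-thickness-alone ones (27.3%), beside 65.8% and 52.9% over all assigned regions of the same classes. Robo1, Robo2 and Slit3 each span over 500 kb, and long genes collect more regions. Without genes over 200 kb the net number of the list was 7 more full-thickness-alone regions, against 20 with them.

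**Figure D3:**
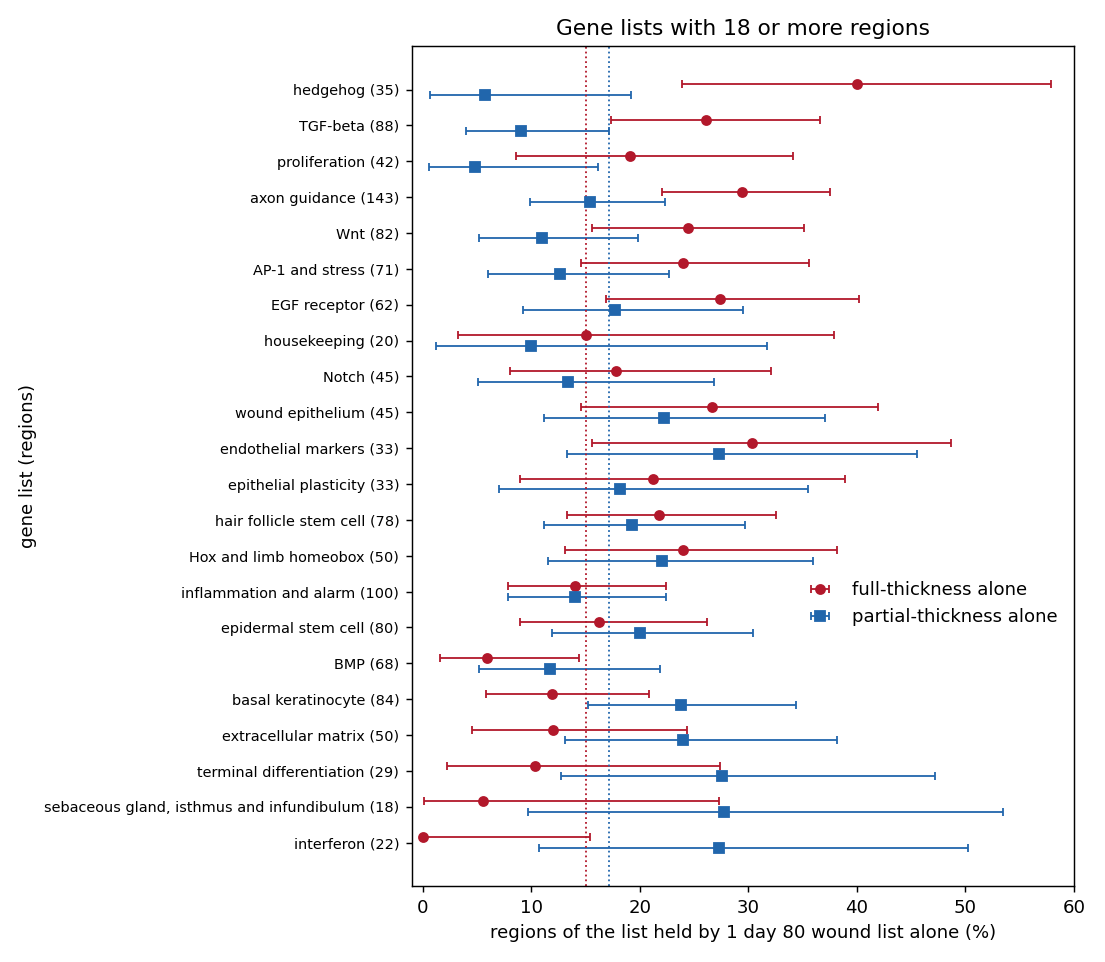
Share of the regions of each gene list with 18 or more regions held by the full-thickness (circles) or the partial-thickness (squares) day 80 list alone (x axis, %), with exact 95% intervals, the number of regions after each name and dotted lines at the shares over all assigned regions (15% and 17.2%). Hedgehog genes stand at the top with 40.0% against 5.71%, and interferon genes at the bottom with 0 against 27.3%.

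Basal keratinocyte genes leaned to the partial-thickness list through genes over 200 kb. Of 84 regions, 10 were full-thickness alone (11.9%, 5.86 to 20.8) and 20 partial-thickness alone (23.8%, 15.2 to 34.3). The intervals of both shares include those over all assigned regions. Trp63, the gene of p63 (gene ID 22061, chr16:25683763-25892088), had 12 regions, of which 6 were in the full-thickness list and 12 in the partial-thickness list. The day 80 epidermal list held 10 of the 12, the day 7 full-thickness list 10, both early partial-thickness lists 9 each, the hair follicle list 5 and the day 0 epidermal list 2. Of the 6 partial-thickness-alone regions, 5 were in an early wound list and 4 in unwounded epidermis. They ranked from percentile 3.51 to 54.3, and their widths ran from 254 to 2309 bp. Lama3, a laminin chain gene of the basement membrane, had 0 full-thickness-alone and 4 partial-thickness-alone regions, and Dst, a hemidesmosome plakin gene, 0 and 3. The integrin gene Itga6 had 3 and 4, and its partner genes Itgb1 and Itgb4 had 2 and 0, and 0 and 1. The basal keratin genes Krt14 and Krt15 had shared regions only, 2 and 1, and Krt5 had 0 and 1 beside 1 shared region. Without genes over 200 kb, among them Trp63, Lama3 and Dst, the net number of the list turned to 3 more regions on the full-thickness side, so the lean rested on these long genes.

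**Figure D4:**
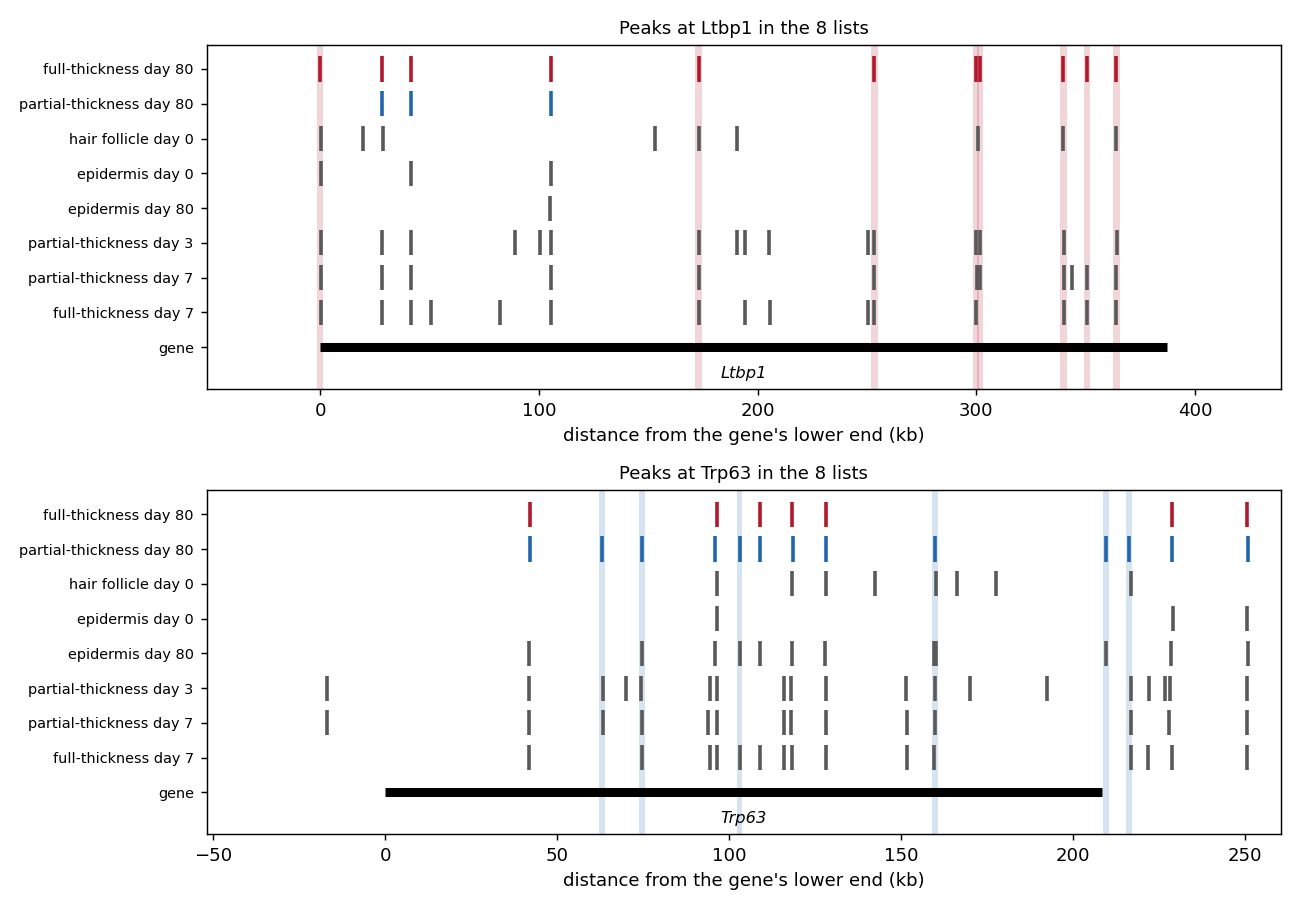
Peaks of all 8 lists along Ltbp1 and Trp63, drawn as ticks at distances in kb from the lower end of each gene (black bar), with red bands at full-thickness-alone and blue bands at partial-thickness-alone regions. The 8 red bands at Ltbp1 fall on ticks of the early wound lists and mostly not of the epidermal lists. Of these 8 bands, 6 also fall on ticks of the hair follicle list. The 6 blue bands at Trp63 lack a tick in the full-thickness day 80 row. Outer peaks may belong to a neighbouring gene.

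Several matrix genes of the basement membrane had partial-thickness-alone regions. Col4a1 and Col4a2, which encode the collagen IV chains and lie head to head, had 0 full-thickness-alone and 3 partial-thickness-alone regions each, and Lamb1, a laminin chain gene, 0 and 2. Lama5, another laminin chain gene, had 2 and 0. The extracellular matrix list had 6 of 50 regions full-thickness alone (12%) and 12 partial-thickness alone (24.0%), and 10 of the 12 were also in unwounded epidermis. The intervals of both shares include those over all assigned regions, and with a gene window of 10 kb the net number of the list was −1, against −6 at 50 kb. Terminal differentiation genes had 3 of 29 regions full-thickness alone (10.3%, 2.19 to 27.4) and 8 partial-thickness alone (27.6%, 12.7 to 47.2). Both intervals include the shares over all assigned regions. The 3 full-thickness-alone regions lay 1 each at Krt10, Sprr1b and Ivl, and that of Ivl overlapped its promoter. Of the 8, 4 lay at Tgm3 (gene ID 21818, chr2:129987794-130050399) and 1 each at Krt1, Klk5, Tgm1 and Ivl. Tgm3 had 8 regions in the full-thickness list and 12 in the partial-thickness list. Sebaceous gland, isthmus and infundibulum genes had 1 full-thickness-alone region and 5 partial-thickness-alone regions of 18, with 0 and 2 at Plet1, a marker of the isthmus, and a net number of −1 with a gene window of 10 kb, against −4 at 50 kb.

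Interferon genes had 0 full-thickness-alone regions of 22 (upper limit 15.4%) and 6 partial-thickness-alone regions (27.3%, 10.7 to 50.2). Of the 6, 4 lay between 16348 and 27283 bp from Irf1 (gene ID 16362, chr11:53770014-53778374), the gene of a transcription factor that interferon induces, and 1 each at Irf8 and Ifit1. The 4 Irf1 regions ranked between percentile 27.3 and 44.5 of the partial-thickness list. Of them 3 were in unwounded epidermis and 3 in an early wound list. The intervals of both shares include those over all assigned regions, and with a gene window of 10 kb the net number of the list was −1, with 0 at Irf1, against −6 at 50 kb. Stat2, Irf7, Ifnar1 and Ifngr1 had shared regions only. Inflammation and alarm genes were even, with 14 full-thickness-alone and 14 partial-thickness-alone regions of 100. Within that list Nfkb1, an NF-kappaB subunit gene, and Aim2, a DNA sensor gene, had 3 and 0 each. The receptor genes Il1r1 and Il1r2 had 1 and 3, and 0 and 2. Of the 14 full-thickness-alone regions 7 were in an early wound list and not in unwounded epidermis, and of the 14 partial-thickness-alone regions 1. Over all assigned regions such regions made up 30.5% of the full-thickness-alone class and 24.6% of the partial-thickness-alone class. The hair follicle list, which that tally leaves aside, held 3 of each 14.

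Genes of the migrating wound epithelium split gene by gene. Krt6a (gene ID 16687, chr15:101689928-101694305), a keratin that wounded epidermis switches on and that the outer layers of the follicle carry, had 1 region, held by the full-thickness list alone of the day 80 wound lists. It lay over the upper boundary of the gene's span (chr15:101694212-101694718) and ranked at percentile 68.2. The region was in the hair follicle list and all 3 early wound lists but in neither unwounded epidermal list. Krt6b is a near-identical neighbour, so reads of Krt6a may be shared with it. Plau, the gene of the protease urokinase, had 0 full-thickness-alone and 3 partial-thickness-alone regions. Its strongest, 7010 bp from the gene (chr14:20850398-20851226), ranked at percentile 84.3 and was in all 6 other lists. Plaur, the urokinase receptor gene, had 2 and 1, and Mmp13, a collagenase gene, 2 and 0. In the whole list 12 of 45 regions (26.7%) were full-thickness alone and 10 (22.2%) partial-thickness alone.

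Hair follicle stem cell genes were nearly even in number, with 17 full-thickness-alone regions of 78 (21.8%, 13.2 to 32.6) and 15 partial-thickness-alone regions (19.2%, 11.2 to 29.7), although the partial-thickness cells are labelled as follicle progeny. Nfatc1, a factor of quiescent bulge cells, had 4 and 0, and Lhx2, a homeobox factor of the bulge, 2 and 0. Vdr, the vitamin D receptor gene, had 1 and 3, and Tcf7l2 0 and 2. Sox9 and Cd34 had 2 shared regions each, and Lgr5 and Foxc1 had no region in either list. The hair follicle list held 10 of the 17 full-thickness-alone regions and 7 of the 15 partial-thickness-alone regions. Epidermal stem cell genes had 13 of 80 (16.3%) and 16 (20%), Notch genes 8 of 45 (17.8%) and 6 (13.3%), and Hox and limb homeobox genes 12 of 50 (24.0%) and 11 (22.0%). In the homeobox list 5 of the 12 full-thickness-alone regions were in an early wound list and not in unwounded epidermis, and 0 of the 11 partial-thickness-alone regions, beside the 30.5% and 24.6% over all assigned regions. The hair follicle list, which that tally leaves aside, held 8 of the 12 and 3 of the 11. Epithelial plasticity genes had 7 and 6 of 33, and housekeeping genes 3 and 2 of 20.

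Markers of keratinocytes were present in both lists, and so were those of melanocytes. All 6 basal keratinocyte markers had a region in each list, with 21 regions in the full-thickness list and 29 in the partial-thickness list. Of the 7 hair follicle stem cell markers 5 had a region in each list, with 24 and 18 regions. Of 7 fibroblast markers 3 had a region in each list, with 4 and 4 regions, and Col1a2, Col3a1, Pdgfrb and Lum had none. Of 6 immune markers 1 and 2 had a region, and of 5 endothelial markers 1 and 3. Of 6 melanocyte markers 5 had a region in each list, with 10 and 10 regions. Muscle markers had 3 and 5 regions and Merkel cell markers 2 and 1. The longer marker lists gave 0 full-thickness-alone and 3 partial-thickness-alone regions at immune genes, 0 and 2 at fibroblast genes, 0 and 4 at muscle genes, 10 and 9 at endothelial genes, 3 and 1 at melanocyte genes and 1 and 0 at Merkel cell genes. The part of other cells in the differences above was not tested.

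By gene rather than by list, 2593 genes had more full-thickness-alone regions and 3232 more partial-thickness-alone regions. A net number of 4 or more occurred at 78 genes on the full-thickness side and 59 on the partial-thickness side. The full-thickness side was led by genes of great span. Macrod2, the gene of a mono-ADP-ribosylhydrolase spanning 1998 kb, had 15 full-thickness-alone and 3 partial-thickness-alone regions. Sema6d, a semaphorin gene (gene ID 214968, chr2:124089943-124667789), had 9 and 0, Anks1b 7 and 0, and Unc13c 6 and 0. Auts2 and Robo1 had 9 and 2 each, Ptprn2 8 and 1, Cdk14 7 and 1, and Kirrel3 6 and 0. Of the 6 Unc13c regions 3 were in no other list, whereas all 7 Cdk14 regions were in unwounded epidermis. The median span of the assigned gene was 68.3 kb for full-thickness-alone regions, 52.1 kb for partial-thickness-alone regions and 42.8 kb for shared regions.

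The partial-thickness side included compact genes. Sik1 (gene ID 17691, chr17:31844248-31855804), a salt-inducible kinase gene of 11.6 kb, had 0 full-thickness-alone and 6 partial-thickness-alone regions. Of these 6, 4 were in no other list, and they ranked from percentile 17.4 to 49.2. Nxn, a redox protein gene, had 0 and 7, Creb5, a CREB-family factor gene, 1 and 8, and Pou2f3, a POU factor gene of keratinocyte differentiation, 0 and 5. Babam2, Rnf144b and St3gal3 had 0 and 6 each. Cwc22, a splicing factor gene, had 0 and 5.

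**Figure D5:**
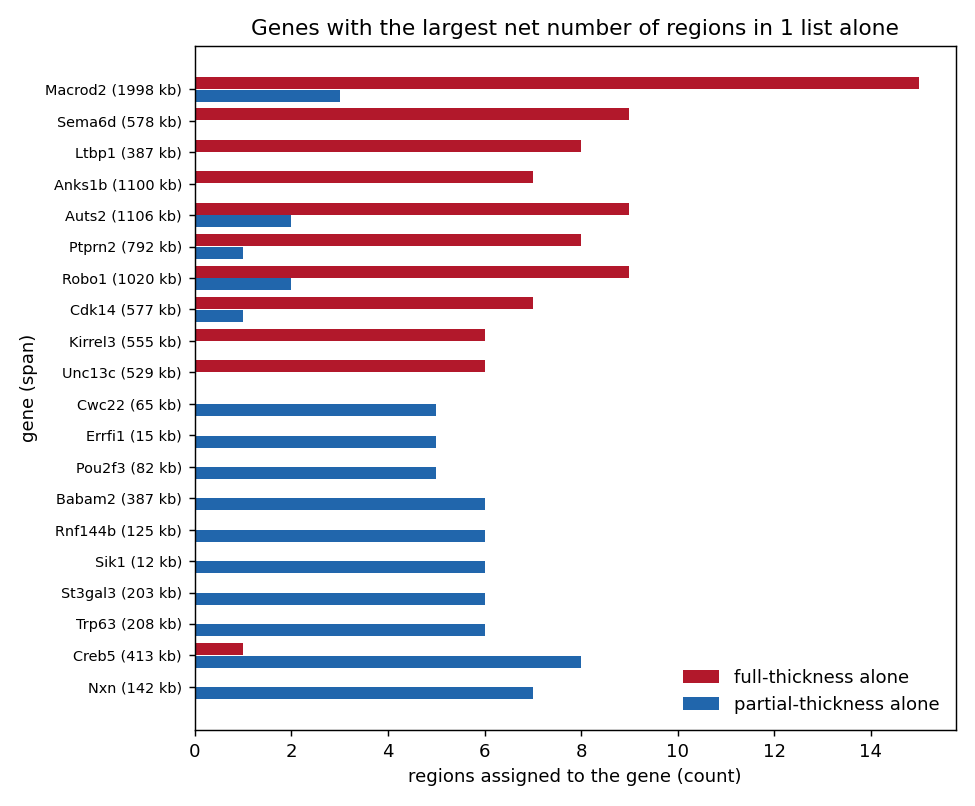
Number of full-thickness-alone (red, upper bar) and partial-thickness-alone (blue, lower bar) regions at the 10 genes with the largest net number on each side (x axis, count), with the span of each gene in kb. Macrod2 leads the full-thickness side with 15 against 3, and Nxn and Creb5 close the partial-thickness side with 0 against 7 and 1 against 8.

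A few differences lay in strong peaks. The strongest full-thickness-alone region ranked at percentile 97.6 and lay 32920 bp from Pum2, an RNA-binding protein gene, and no other list held it. The next lay 2828 bp from Kl, the klotho gene, at percentile 96.1, and was in the day 0 epidermal list and the 3 early wound lists. A region over the start of Lsm14b, an RNA-binding protein gene, followed at percentile 94.2 and was in the day 80 epidermal list. Chst2, a sulfotransferase gene, had 4 full-thickness-alone regions and one of them ranked at percentile 92.7. Chst2 was singled out for these regions after its values were seen. Of the 4, 2 were in all 6 other lists, so they were missing from the partial-thickness list alone.

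On the partial-thickness side the strongest region lay 36873 bp from Cwc22 (percentile 90.3). Regions with no protein-coding gene within 50 kb followed on chromosome 14 (percentile 89.8) and chromosome 4 (percentile 88.6), and then another region at Cwc22 and a region at Hspa1b, a heat-shock protein gene (both at percentile 88.4). The Hspa1b region was in all 6 other lists and absent from the full-thickness list. Its promoter matches that of its neighbour Hspa1a at 247 of 250 positions, so reads may be divided between them. The Hspa1a promoter also overlapped a partial-thickness-alone region (chr17:34972037-34972719, percentile 81.3). Both promoters were thus without a peak in the full-thickness list, and the part of divided reads was not tested. A region at Traip, a ubiquitin ligase gene, ranked at percentile 88.0 and was in both unwounded epidermal lists and in no early wound list. Of all alone regions, 297 full-thickness-alone regions (4.77%, 4.26 to 5.33) and 265 partial-thickness-alone regions (3.94%, 3.49 to 4.43) were in all 6 other lists. Of these, 132 (44.4%) and 90 (34.0%) lay within 1 kb of a gene end. Here and below a gene end is either boundary of a gene's span, on the side of the start or the other.

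By position, full-thickness-alone regions had the higher share both far from genes and at gene ends. Beyond 50 kb of any protein-coding gene lay 18.1% (17.1 to 19.0) of full-thickness-alone regions, 13.3% (12.5 to 14.1) of partial-thickness-alone regions and 12.1% of shared regions. Inside genes lay 55.1%, 55.4% and 65.4% in the same order. Within 1 kb of a gene end lay 13.1% (12.3 to 14.0), 11.2% (10.5 to 12) and 33.0% in the same order. In strong regions the order at gene ends was the opposite, with 11.1% of full-thickness-alone and 14.7% of partial-thickness-alone regions, with intervals that overlap (half-widths of 2.54 and 2.93 points). Chromosome X held 194 full-thickness-alone regions (3.12%, 2.70 to 3.58), 102 partial-thickness-alone regions (1.52%, 1.24 to 1.84) and 2.11% of shared regions. Chromosome Y held 0 and 3. The sources used here give no sexes, and the part of sex in these counts was not tested. On autosomes alone the 2 classes kept the same order in each early wound list.

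Promoters set the classes apart by base content. Of 21262 promoter windows of 250 bases, 517 overlapped a full-thickness-alone region and 415 a partial-thickness-alone region. The median GC content was 64.8% in full-thickness-alone windows, 57.6% in partial-thickness-alone windows, 60.8% in windows that overlapped a shared region and 55.6% over all windows. The letters GGGCGG were found in 72.0% (67.9 to 75.8) of full-thickness-alone windows, 52.5% (47.6 to 57.4) of partial-thickness-alone windows, 62.9% of shared windows and 42.6% of all windows. In both measures the partial-thickness-alone windows were thus above all windows and below the shared ones. The Mki67 promoter holds them and the Ltbp1 promoter does not. The letters TGANTCA were found in 5.22% (3.47 to 7.51), 7.95% (5.54 to 11), 4.25% and 6.13% in the same order. The letters CCAAT were found in 26.3%, 34.5%, 38.2% and 35.4%, TATAAA in 7.16%, 8.43%, 5.28% and 11.6%, and GATAAG in 1.93%, 5.06%, 3.96% and 6.25%. All 5 motifs were counted on both strands, and a match describes letters, not a bound factor.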

How the data were processed

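ATAC-seq peaks of 24 mouse skin samples were deposited by the authors as 8 peak lists, 1 per group, and the lists hold no value per sample. The submitters' processing notes name Bowtie, Picard, MACS2 2.1.1.20160309, bedtools 2.29.2 and mm10, with no role or order. The deposited lists are in the narrow-peak format, with a score, a fold enrichment over background, −log10 p and −log10 q values and a summit position for each peak. The sources used here do not say how the peaks were filtered, and the lowest −log10 p differs between the lists. Scores and −log10 q values were not used in the results. 0 columns belonged to samples of other studies.

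From these lists the peaks of the day 80 wound lists were merged where they overlapped by at least 1 bp. Strength was the percentile of −log10 p within the own list, and a merged region took its strongest peak. Genes came from RefSeq on GRCm38.p6 (nearest protein-coding gene within 50 kb, ties by the nearer gene end). Shares carry exact Clopper-Pearson intervals at 95%. Differences carry a half-width, the root of the summed squares of the half-widths of the 2 exact intervals. With 1 list per group no test was made. The merging and counting were tested on simulated peaks. Python 3.11.15, numpy 2.4.6, pandas 2.3.3, scipy 1.17.1 and matplotlib 3.10.9 were used.

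The regions compared, the gene lists and the marker lists were chosen with earlier results of these data known. Named genes were the 10 with the largest net number of alone regions on each side, the nearest genes of the 10 strongest regions of each class, up to 4 members per list by net number and 16 fixed genes; the other genes named in the text, the printed sequences, the mapped genes, the regions missing from 1 list and the runs were chosen after their values were seen. Alternatives varied the overlap rule, strength, gap, list length, strictness, summit windows, gene window and gene end window, and, added later, autosomes, gene span, the day 0 epidermal list and rank classes.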

Additional observations from a re-analysis of the deposited data

How the results depend on the processing

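No paired analysis was possible because each group has 1 list, with no value per replicate; for the same reason leaving out single replicates could not be run. Without sex chromosomes, with peaks joined over gaps of 500 bp and with lists cut to equal length, all 25 class results kept their direction and size. The cause of the following shifts was not tested. All differences are full-thickness alone minus partial-thickness alone, in points, in the order hair follicle, epidermis day 0, epidermis day 80, partial day 3, partial day 7, full day 7, and regions of early wounds absent from unwounded skin. With peaks covering 50% of a region, 17548 regions were partial-thickness alone and 15421 (39.3%) shared, and the differences were −24.3, −29.2, −36.2, −12.6, −15.8, −14.5 and 16.3. With strong peaks, 624, 593 and 94.0% shared remained, with −9.91, −5.12, −22.6, 16.3, 17.6, 18.7 and 13.7. With summit windows, 62.7% were shared, with 4.99, 7.66, 0.595, 15.9, 15.2, 15.4 and 4.27. At an equal limit of 20 in −log10 p scaled to the summed −log10 p of the list, 4020 and 4452 were alone and 15357 (64.4%) shared; hair follicle gave −6.31, epidermis day 80 −9.30, partial day 3 9.84 and the last 4.30. Within 2 kb of a gene end lay 16.4% of full-thickness-alone and 15.4% of partial-thickness-alone regions, and among strong regions 11.1% and 14.7% within 1 kb. Without the day 0 epidermal list the early wound difference was 11.1.

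Some net region numbers changed sign, and the new values were small. At a 10 kb gene window they were −2 for epithelial plasticity and −1 each for Dll1, Flt1, Grhl3 and Tgfbi, and at 100 kb −1 for housekeeping genes. With strong peaks they were 1 for epidermal stem cell genes, −1 each for wound epithelium, Notch, EGF receptor, epithelial plasticity and endothelial genes, −2 for Hox genes, −1 each for Ereg, Lrig3 and Slit3, and 1 each for Lrig1 and Wnt7b. Without genes over 200 kb they were 3 for basal keratinocyte and −2 for endothelial genes. Not all of the values before the change were small, with −10 for basal keratinocyte genes and 6 for EGF receptor genes. Depth is unknown, narrow peaks in 1 list and wide peaks in the other affect every overlap, and presence in a list depends on a threshold that differs between lists.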

Other observations

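Regions held by 1 day 80 wound list sometimes followed each other along a chromosome with no other region between them. The full-thickness list had 992 such runs of 2 or more regions, 29 of 5 or more and 11 of 6 or more, and the partial-thickness list had 1008, 9 and 0. The longest run held 10 full-thickness-alone regions over 1414 kb (chr12:108959748-110373740). It spans the imprinted cluster of Dlk1, Meg3, Rtl1, Rian, Mirg and Dio3, in which genes are active on 1 parental copy. None of the 10 regions overlapped a gene of the cluster. Their nearest genes were Wdr25, Begain and Dlk1, and those counted at Dlk1 lay 9726 to 40181 bp from it. No region lay between chr12:109473327 and chr12:110203613, the stretch that holds Meg3, Rtl1, Rian and Mirg. In the whole span of the run the other lists held 9 peaks (partial day 3), 7 (partial day 7), 4 (full day 7), 4 (hair follicle), 1 (epidermis day 0) and 1 (epidermis day 80). The day 80 partial-thickness list held 0. Of the 10 regions 5 were in no other list, and their ranks ran from percentile 3.10 to 58.1. One of the longest partial-thickness runs, of 5 regions, lay among the kallikrein protease genes Klk15, Klk4, Klk5 and Klk6 (chr7:43820778-43920245). Of these, Klk5 acts in the shedding of the outer skin.

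Of 1005 miRNA hairpins, 5 lay in full-thickness-alone regions and 11 in 7 partial-thickness-alone regions. The full-thickness-alone regions covered 2.33 Mb and the partial-thickness-alone regions 5.40 Mb, so the counts are no measure of a difference in miRNA genes. Hairpins in shared regions were not counted. The region with miR-23b, miR-27b and miR-24 (chr13:63300287-63301527) ranked at percentile 47.4 and was in both unwounded epidermal lists and in no other list. The region with miR-344b (chr7:61790213-61790798) ranked at percentile 88.5, had no protein-coding gene within 50 kb and was in no other list. No RNA was measured.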
